A study of Mus musculus with 4 samples.

Results

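Apolipoproteins are the protein part of plasma lipoproteins, and the liver makes most of them. The 10 genes described here, Apoa1, Apoa2, Apoa4, Apoa5, Apob, Apoc1, Apoc2, Apoc3, Apoe and Apom, were taken by symbol from a count table of 22155 genes, and all 10 passed the filter on low counts, as did 13309 genes in all. The counts come from messenger RNA of whole liver of wild-type C57BL/6 mice, an inbred laboratory strain, aged 8 to 10 weeks. In the gavage group, 2 libraries came from mice on a Lieber-DeCarli liquid diet with 5% ethanol for 10 days that were then given ethanol at 5 g per kg of body weight in 1 dose by stomach tube (gavage) and killed 9 h later. In the group called ethanol alone, 2 libraries came from mice on the same diet whose titles name no gavage, although the treatment text in the labels describes the binge for all 4 samples. Both groups thus drank ethanol, and no group without ethanol is described here. The labels name neither the sex of the mice nor a control gavage, nor whether each library is a different animal, so the spread behind the p-values may be technical.

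As background, apolipoprotein B is the structural protein of very low density lipoprotein, the triglyceride-rich particle that the liver secretes, and stays with its particle until uptake. Apolipoproteins A-I and A-II form the frame of high density lipoprotein (HDL), while the smaller C proteins and apolipoprotein E move between particles and set how fast their triglyceride is hydrolysed by lipoprotein lipase and how their remnants are cleared by receptors. Apolipoprotein A-IV is made mainly in the intestine, but in the mouse its liver gene responds strongly to fasting and to fat accumulation.

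Total counts lay between 28791281 and 30347558 per library, and values below are CPM, counts scaled to library sizes that TMM had corrected for composition. Replicate 1 of ethanol alone stood apart: among tested genes whose longest transcript is under 1000 bases, the median log2 CPM, relative to each gene's mean over the 4 libraries, was -0.21 and -0.25 in gavage replicates 1 and 2, against 0.50 in that library and -0.01 in replicate 2 of ethanol alone. For transcripts of 4000 bases or more it was 0.07 and 0.09 in the gavage replicates, against -0.17 in that library and 0.01 in replicate 2 of ethanol alone. Except for Apob and Apoa5, the 10 genes have longest transcripts under 2000 bases, so each fold change is also given without that library. Adipocyte markers separated the replicate numbers and not the groups. All 5 such markers had counts in both libraries numbered 1, where they summed to 43.5 CPM in the gavage group and 33.6 CPM in ethanol alone, and at most 0.0664 CPM in the libraries numbered 2.

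The level of each gene was compared per kilobase of merged exons. On that scale Apoa2, Apoa1 and Apoe had the highest means over the 4 libraries, at 6845, 5674 and 5612 CPM per kilobase, and their ranges overlapped. Each ranked among the 13 highest genes of the table in every library. Apoc1 followed, between 1994 and 5480 CPM per kilobase, below Apoe in 4 of 4 libraries, and its range lay wholly above that of Apoc3, which ran between 1022 and 1786 CPM per kilobase. The ranges of Apoc3, Apoa4, Apob and Apoa5 overlapped their neighbours in this order. Apom, the carrier of sphingosine-1-phosphate on HDL, lay between 167 and 321 CPM per kilobase, under all of them.

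Apoc2 stood at the far end, with 1.72 to 1.92 CPM per kilobase. It encodes the activator of lipoprotein lipase. It had 44 and 47 counts in the gavage libraries and 39 and 45 counts with ethanol alone, and the 95% Poisson intervals of the 4 counts, which cover counting error only, all overlapped between 34.5 and 53.3 counts. In the GENCODE M21 annotation of GRCm38, another protein-coding model on the same strand, Gm44805, covers 646 of its 813 exon bases (79.5%), and that model had 0 counts in every library. How the counting treated reads that fall in both models is not given in the sources used here. The level of Apoc2 is therefore read here as a count over what the table assigned to it, not as the amount of its mRNA.

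**Figure D1:**
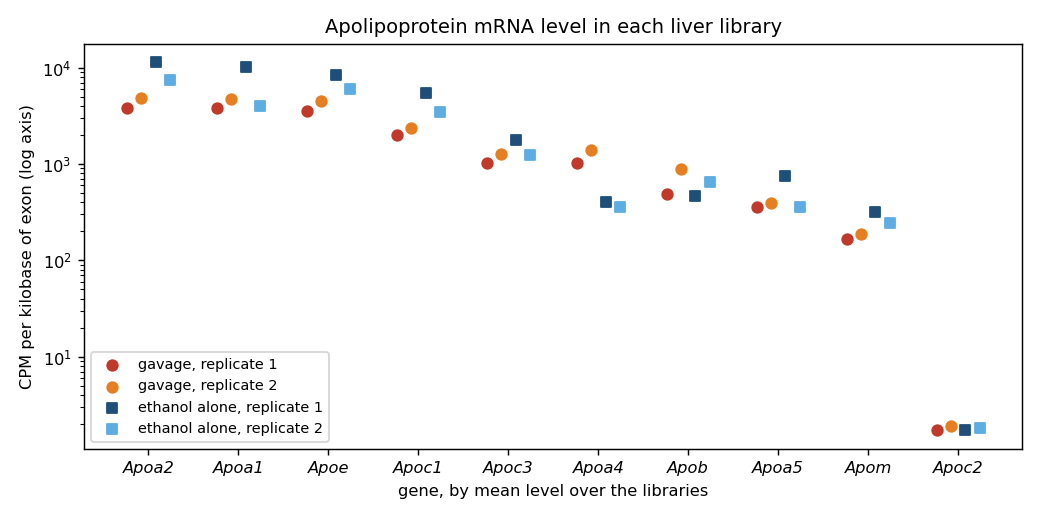
Level of each apolipoprotein mRNA in CPM per kilobase of merged exons on a log axis, with genes ordered by their mean; circles are the 2 gavage libraries and squares the 2 libraries of ethanol alone. Apoa4 is the gene whose gavage circles, at 1017 and 1416, stand clear above its squares, at 401 and 361, while Apoa2, Apoe, Apoc1 and Apom have both circles below both squares.

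Hepatocyte markers were abundant in every library, with Alb, the gene of albumin, between 83277 and 110898 CPM. They were not steady as single genes: of 8 markers 4 were higher and 4 lower after the gavage, with a median log2 fold change of -0.10. Fgb had 11397 and 8914 CPM after the gavage, against 5710 and 3990 CPM with ethanol alone. Ttr had 3064 and 3350 CPM, against 6537 and 5394 CPM (log2 fold changes 1.07 and -0.90). Of 8 enterocyte markers, Lct and Sis had 0 counts in all 4 libraries, Alpi and Cdh17 at most 1 count, and Vil1 at most 0.399 CPM. Slc5a1, an intestinal glucose transporter, had 6.50 and 2.59 CPM after the gavage, against 2.09 and 3.20 CPM with ethanol alone, with overlap. Rbp2, an intestinal retinol-binding protein, had 51 and 0 counts after the gavage, against 1 and 0 counts with ethanol alone. Fabp2, which the liver also expresses, made up most of this list in every library, and the 8 genes summed to 44.7 and 62.2 CPM after the gavage, against 151 and 73.5 CPM with ethanol alone. Summed stellate cell markers stood at 596 and 576 CPM after the gavage, against 584 and 526 CPM with ethanol alone, and sinusoidal endothelial markers at 234 and 257 CPM, against 270 and 265 CPM. Cholangiocyte markers stood at 72.9 and 57.4 CPM after the gavage, against 80.6 and 65.5 CPM with ethanol alone, and neutrophil markers at 14.2 and 3.55 CPM, against 2.42 and 2.15 CPM. Such sums can hide single genes. The stellate marker Des followed the replicate numbers, with 85.5 and 5.88 CPM after the gavage, against 33.1 and 4.76 CPM. Of the 5 endothelial markers 2 were higher and 3 lower, with Lyve1 at 40.8 and 37.4 CPM after the gavage, against 13.4 and 20.5 CPM. The 2 libraries of a group did not agree within sampling noise, with a chi-square per degree of freedom of 135 for the gavage pair and 126 for the pair of ethanol alone, and were kept as separate samples.

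After the gavage, Apoa4 mRNA was about 3 times as abundant as with ethanol feeding alone (fold 3.19). Apoa2, Apoc1, Apoe and Apom were lower after the gavage, without overlap of the groups, at between 0.461 and 0.626 of the level of ethanol alone. Apoa1, Apoa5 and Apoc3 had lower means after the gavage with overlapping libraries, and Apob and Apoc2 had folds of 1.24 and 1.02. No gene of the table passed edgeR's quasi-likelihood test, adjusted by Benjamini-Hochberg over 13309 genes, so 0 of the 10 were called at an adjusted p of 0.05 (0% of all tested genes). At an unadjusted p under 0.05 in that test, 1 of 10 was higher (8.91% of all tested genes) and 4 of 10 were lower (9.85%), together 5 of 10 beside 18.8% of all tested genes. The groups did not overlap with gavage lower in 4 of 10 (27.2% of all tested genes) and with gavage higher in 1 of 10 (27.5%). edgeR's likelihood-ratio test called 1 of the 10, Apoa4 (4.13% of all tested genes). DESeq2 called 1 of the 10 higher (4.37% of the genes with an adjusted p) and 3 of the 10 lower (5.43%). On simulated counts more than the nominal share of the calls of DESeq2 and of the quasi-likelihood test were false. How far that carries over to these data was not tested, so each DESeq2 call given here is read with caution. The median log2 fold change of the 10 genes was -0.61, beside 0.02 for all tested genes. Without replicate 1 of ethanol alone that median was -0.08 and 0 of the 10 were lower at an unadjusted p under 0.05 (7.55% of all tested genes in that fit), and without replicate 1 of the gavage group 0 were (3.87%). Of all tested genes 48.3% had a fold change below 0, beside 7 of the 10. Among the 110 tested genes with a mean of at least 1000 CPM the median was -0.35 and 70% were lower, beside -0.64 and 6 of 8 for the apolipoproteins among them. In whole tissue, fewer cells of a type and less RNA per cell cannot be told apart.

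**Figure D2:**
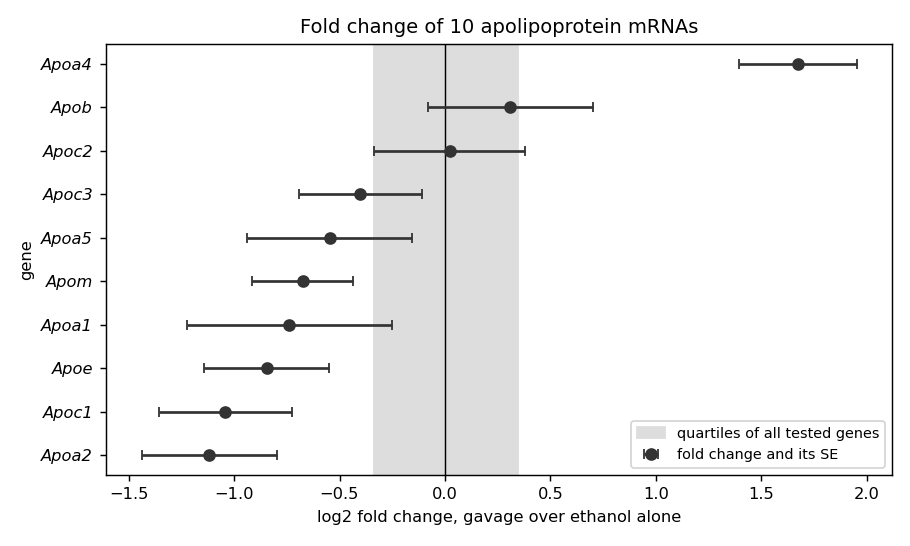
Log2 fold change of each apolipoprotein, gavage over ethanol alone, with its standard error as bars; the grey band spans the quartiles of all 13309 tested genes, -0.34 to 0.35. Apoa4 lies at 1.67, right of the band, and Apoa2 and Apoc1, at -1.12 and -1.04, lie farthest to the left.

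Apoa4 had 1847 and 2570 CPM after the gavage, against 728 and 656 CPM with ethanol alone. Both values after the gavage thus lay well above both of the other group. The log2 fold change was 1.67 (SE 0.28), with an adjusted p of 0.133 in edgeR's quasi-likelihood test, and Apoa4 had the largest absolute fold change of the 10. DESeq2 gave an adjusted p of 7.73e-09 and edgeR's likelihood-ratio test 0.000531, both past the threshold. Without replicate 1 of ethanol alone the log2 fold change was 1.72. The value stayed between 1.41 and 1.89 under all 15 alternatives. In the annotation, 2 models on the opposite strand, Gm47528 and Gm10680, overlap 34.9% and 34.8% of its exon bases. The table used here has no row under either name, and since the strand setting is not given, reads from that strand cannot be told apart from its own.

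Apoa1 encodes the main protein of HDL. It had 4682 and 5829 CPM after the gavage, against 12603 and 4940 CPM with ethanol alone. The groups overlapped, because replicate 2 of ethanol alone lay between the gavage libraries while replicate 1 was 2.55 times as high. The log2 fold change was -0.74 (SE 0.49, edgeR adjusted p = 0.451). It was 0.06 without replicate 1 of ethanol alone, so its direction rested on that library.

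Apoa2, the second protein of HDL, had 2051 and 2588 CPM after the gavage, against 6099 and 3964 CPM with ethanol alone. Every gavage value was below every value of ethanol alone, and the log2 fold change of -1.12 (SE 0.32, edgeR adjusted p = 0.198) was the lowest of the 10. Without replicate 1 of ethanol alone it was -0.80. Apom had 169 and 189 CPM after the gavage, against 325 and 246 CPM with ethanol alone. Its log2 fold change was -0.68 (SE 0.24, edgeR adjusted p = 0.242), and -0.49 without that library. DESeq2 called Apoa2 (adjusted p = 0.00399) and not Apom (adjusted p = 0.0508).

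Apoe encodes the ligand through which remnant particles bind the low density lipoprotein receptor. It had 7596 and 9563 CPM after the gavage, against 17845 and 12990 CPM with ethanol alone, with no overlap. The log2 fold change was -0.85 (SE 0.30, edgeR adjusted p = 0.24), and -0.63 without replicate 1 of ethanol alone. DESeq2 called it lower (adjusted p = 0.0201). Apob had 6740 and 12531 CPM after the gavage, against 6468 and 9067 CPM with ethanol alone. Its highest value was in replicate 2 of the gavage group and the groups overlapped. The log2 fold change was 0.31 (SE 0.39, edgeR adjusted p = 0.703), 0.06 without replicate 1 of ethanol alone, and -0.21 when replicate 2 of the gavage group was left out.

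The C proteins and apolipoprotein A-V act on triglyceride hydrolysis: apolipoprotein C-III slows it and A-V promotes it. Apoc1 had 1484 and 1760 CPM after the gavage, against 4077 and 2605 CPM with ethanol alone. It showed no overlap, with a log2 fold change of -1.04 (SE 0.32, edgeR adjusted p = 0.206, DESeq2 adjusted p = 0.0075), and -0.71 without replicate 1 of ethanol alone. Apoc3 had 1036 and 1283 CPM after the gavage, against 1811 and 1252 CPM with ethanol alone. Replicate 2 of ethanol alone lay just under replicate 2 of the gavage group, so the groups overlapped. Its log2 fold change was -0.40 (SE 0.29, edgeR adjusted p = 0.492), and -0.14 without replicate 1 of ethanol alone. Apoa5 had 907 and 1003 CPM after the gavage, against 1876 and 913 CPM with ethanol alone. A model on the opposite strand, Gm47544, overlaps 20.8% of its exon bases, so the strand limit given for Apoa4 holds here too. Only replicate 1 of ethanol alone stood apart in Apoa5. The log2 fold change was -0.55 (SE 0.39, edgeR adjusted p = 0.485), and 0.04 without that library. Apoc2 had 1.40 and 1.56 CPM after the gavage, against 1.43 and 1.49 CPM with ethanol alone, with a log2 fold change of 0.02 (SE 0.36, edgeR adjusted p = 0.98), and -0.03 without that library.

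The 10 genes thus followed more than one pattern across the libraries. The closest pair was Apoa2 and Apoc1, whose log2 CPM, each relative to its own mean, differed by at most 0.09 in any library. Apoe and Apom were the next pair, with at most 0.17. Apoe was then followed by its pairs with Apoc1, at most 0.18, and with Apoa2, at most 0.21. Apoa1 and Apoa5 came after these, with at most 0.23. They are the genes in which replicate 1 of ethanol alone was over 2 times replicate 2 (2.55 and 2.05), while for the other 8 genes the higher library of ethanol alone was between 1.04 and 1.57 times the lower. In the gavage group the higher library was between 1.11 and 1.39 times the lower for 9 genes and 1.86 times for Apob. The largest gap in any library, 1.73, was between Apoa1 and Apoa4, and that between Apoa2 and Apoa4 was 1.61. These likenesses describe 4 libraries and are not tested.

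Apoa4 lies in a cluster with 3 of the other genes. On chromosome 9 of GRCm38, Apoa1 (46228580 to 46230466, plus strand), Apoc3 (46232933 to 46235636, minus strand), Apoa4 (46240696 to 46243459, plus strand) and Apoa5 (46268633 to 46271919, plus strand) lie side by side. Count ratios between genes of the same library do not depend on how libraries are scaled. The ratio of Apoa4 to Apoa1 counts was 0.394 and 0.441 after the gavage, against 0.0578 and 0.133 with ethanol alone. Relative to Apoc3 it was 1.78 and 2 after the gavage, against 0.402 and 0.524 with ethanol alone. Relative to Apoa5 it was 2.04 and 2.56 after the gavage, against 0.388 and 0.718 with ethanol alone. The 3 ratios were 4.76, 4.12 and 4.33 times as high after the gavage, as geometric means over all 4 libraries, and none overlapped. An exact 2-sided permutation test gave p = 0.333 for each, the smallest that 2 against 2 libraries allow. Each ratio was lowest in replicate 1 of ethanol alone, the library where Apoa1, Apoc3 and Apoa5 were highest, which enlarged these folds. Without that library the log2 fold change was 1.72 for Apoa4, beside 0.06 for Apoa1, -0.14 for Apoc3 and 0.04 for Apoa5. The ratios among the other 3 genes overlapped between the groups, with Apoc3 to Apoa1 at 0.221 and 0.220 after the gavage, against 0.144 and 0.253 with ethanol alone.

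**Figure D3:**
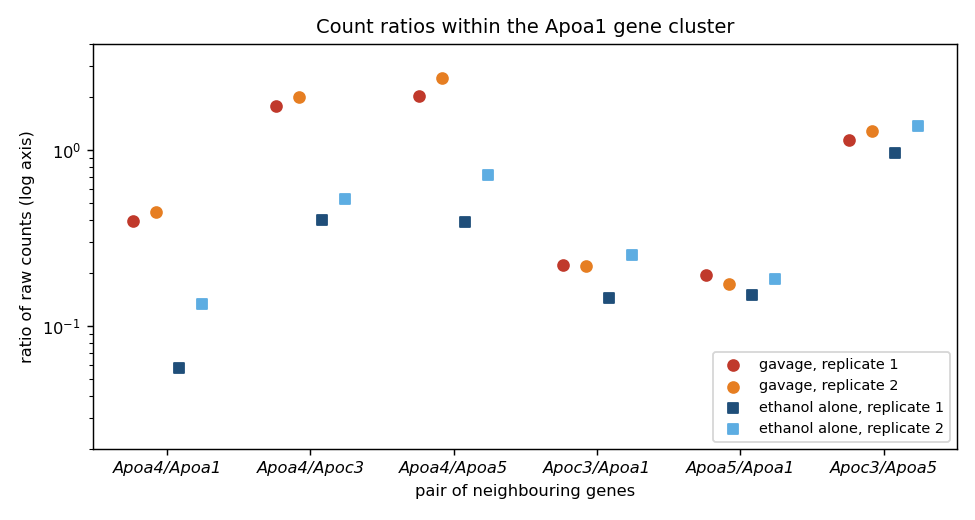
Ratio of raw counts between neighbouring genes on chromosome 9 in each library, on a log axis; circles are gavage libraries and squares those of ethanol alone. The 3 ratios with Apoa4 on top have both circles above both squares, as with 1.78 and 2 against 0.402 and 0.524 for Apoa4 over Apoc3, while the other 3 ratios overlap.

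The sequences just upstream of these genes are shown because neighbours in one cluster stood apart in their counts, and that of Apob for comparison. They are the part of the RefSeq promoter window (250 bases before to 50 after a gene's start, GRCm38.p6) that lies before both the RefSeq start and the GENCODE start, and 8 of the 10 genes, all but Apoc1 and Apoc3, were matched to one. Where a gene had several windows, that with its start nearest the GENCODE start was used. Positions below are counted from the RefSeq start. Relative to it, the GENCODE start, where the printed sequence ends, lies at -148 for Apoa4, -50 for Apoa1 and -29 for Apob. Capitals mark matches, on either strand, to CAAAGNNCA, a form of the site bound by hepatocyte nuclear factor 4 alpha, to the nuclear receptor half-site AGGTCA, or to the TATA box TATAAA. The first 2 can overlap where a site reads on into the half-site. All windows of 300 bases in the table were searched in the same way.
Apoa4, chr9:46240594-46240695, plus strand: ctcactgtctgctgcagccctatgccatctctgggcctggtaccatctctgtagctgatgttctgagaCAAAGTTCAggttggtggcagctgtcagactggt
Apoa1, chr9:46228380-46228579, plus strand: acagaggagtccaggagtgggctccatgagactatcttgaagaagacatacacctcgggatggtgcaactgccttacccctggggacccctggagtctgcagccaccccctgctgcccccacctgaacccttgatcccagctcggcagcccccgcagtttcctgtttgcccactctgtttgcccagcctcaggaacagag
Apoa5, chr9:46268383-46268632, plus strand: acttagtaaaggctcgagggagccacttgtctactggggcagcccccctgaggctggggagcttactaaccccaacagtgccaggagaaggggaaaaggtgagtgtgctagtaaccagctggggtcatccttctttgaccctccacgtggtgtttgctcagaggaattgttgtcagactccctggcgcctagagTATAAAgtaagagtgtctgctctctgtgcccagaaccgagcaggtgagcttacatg
Apob, chr12:7977427-7977647, plus strand: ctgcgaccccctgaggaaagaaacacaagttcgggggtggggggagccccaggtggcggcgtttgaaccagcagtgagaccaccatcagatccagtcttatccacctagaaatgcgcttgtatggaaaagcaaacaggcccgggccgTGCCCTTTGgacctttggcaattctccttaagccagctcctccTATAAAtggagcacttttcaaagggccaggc

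Apoa4 held 1 match to the first motif, CAAAGTTCA, beginning 182 bases before its RefSeq start. Apob held 1 on the other strand, beginning 103 bases before its RefSeq start. No other of the 8 windows searched held that motif, so the printed sequences show it more often than the 8 windows do. Of 32851 windows, 6.36% held that motif, 16.3% the half-site and 13.6% the TATA box. Apoa5 and Apob had a TATA box match beginning 56 and 60 bases before the RefSeq start, and Apoa2 had one 212 bases before it. Of the 8 windows searched, that of Apoc2 held the half-site, and those of Apoa1, Apoe and Apom held none of the 3. These are matches of letters and say nothing of binding in these livers.

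The second cluster, on chromosome 7, holds Apoe (19696109 to 19699188), Apoc1 (19689481 to 19692660), Apoc4 (19678083 to 19681479) and Apoc2 (19671579 to 19677941), all on the minus strand. Apoe, Apoc1 and Apoc4 had lower means after the gavage, as did Apoa2 and Apom on other chromosomes. Apoc4, a minor apolipoprotein outside the 10, had 233 and 291 CPM after the gavage, against 705 and 404 CPM with ethanol alone. Its log2 fold change was -1.08 (SE 0.34, edgeR adjusted p = 0.214), beside -1.04 for Apoc1 and -0.85 for Apoe. The ratio of Apoc1 to Apoe counts was 0.195 and 0.184 after the gavage, against 0.228 and 0.201 with ethanol alone, and that of Apoc4 to Apoc1 was 0.157 and 0.165, against 0.173 and 0.155. The first ratio was lower after the gavage without overlap (exact permutation p = 0.333, the smallest possible), at 0.886 of the level of ethanol alone, and the second overlapped. The ratio of Apoc4 to Apoe counts was also lower without overlap, at 0.0307 and 0.0304 after the gavage, against 0.0395 and 0.0311 with ethanol alone. The other genes are Apoa2 on chromosome 1 (171225054 to 171226379), Apob on chromosome 12 (7977648 to 8016835) and Apom on chromosome 17 (35128997 to 35132050). Apob and Apoe encode the receptor-binding proteins of very low density lipoprotein. The ratio of Apob to Apoe counts was 0.887 and 1.31 after the gavage, against 0.362 and 0.698 with ethanol alone, with no overlap (exact permutation p = 0.333). Their longest transcripts differ, at 13934 and 1408 bases, and fold changes varied with transcript length, as given below. With an offset for length and GC content, the log2 fold change was -0.06 for Apob and -0.55 for Apoe.

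The 10 genes held 2.78% and 3.74% of all counts after the gavage, against 4.92% and 3.65% with ethanol alone. The groups overlapped, with means of 3.26 ± 0.677% and 4.29 ± 0.894% (SD, n = 2 each), and the exact permutation test gave p = 0.667. Wilson 95% intervals, which cover counting error only, were narrow, as with 2.78% to 2.79% in the first library. Without Apob, the longest of them, the share was 2.08% and 2.48% after the gavage, against 4.30% and 2.75% with ethanol alone, without overlap (exact permutation p = 0.333).

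Fold changes varied with transcript length, and the mRNA of Kupffer cell markers also differed between the groups. The median log2 fold change was -0.53 among 476 tested genes with longest transcripts under 1000 bases, of which 79.6% were lower after the gavage, and -0.24 among 2160 genes with 1000 to 2000 bases. It was -0.01 from 2000 to 4000 bases and 0.17 at 4000 bases or more. Apoa2, Apoc1, Apoc2 and Apoc3 fall in the shortest class, Apoa1, Apoa4, Apoe and Apom in the next, Apoa5 in the third and Apob, with 13934 bases, in the last. With an offset that removes the trend in length and GC content, Apoa2, Apoc1, Apoe and Apom had log2 fold changes of -0.55, -0.46, -0.55 and -0.31, and none of the 4 kept an unadjusted p under 0.05. Apoc3 and Apob changed sign, to 0.10 and -0.06. Apoa4 stood at 1.87 with that offset. Kupffer cells, macrophages of the liver, also make Apoe and Apoc1 mRNA. Their markers were lower after the gavage in 9 of 9 genes without overlap (27.2% of all tested genes). They summed to 375 and 413 CPM after the gavage, against 675 and 619 CPM with ethanol alone. The median log2 fold change of these markers was -0.72, and -0.47 with the length and GC offset. All 9 were detected, with Clec4f at 87.6 and 110 CPM after the gavage, against 170 and 160 CPM with ethanol alone. The part of length and of these cells in the values of the 10 genes was not tested beyond that offset.

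**Figure D4:**
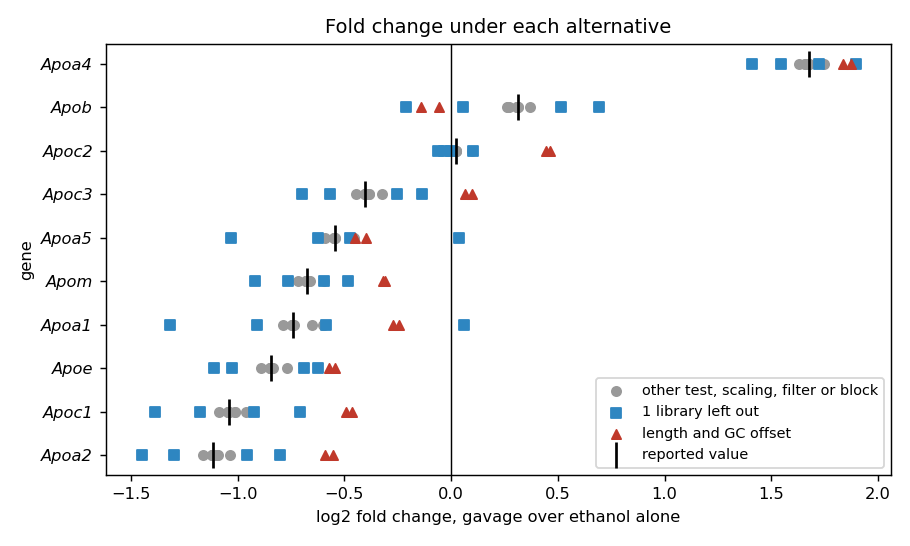
Log2 fold change of each apolipoprotein under the reported fit (black bar), under other tests, scalings, filters or the replicate block (grey circles), with 1 library left out (blue squares) and with the length and GC offset (red triangles). Apoa4 stays between 1.41 and 1.89, while Apoa1, Apoa5, Apoc3, Apob and Apoc2 cross 0 under at least 1 alternative.

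Other apolipoproteins outside the 10 were mostly lower after the gavage, in 9 of 11 tested genes, with a median log2 fold change of -0.72 and 6 of 11 lower at an unadjusted p under 0.05 (9.85% of all tested genes). DESeq2 called the same number, 6 lower (5.43% of the genes with an adjusted p) and 0 higher. Apoh, a phospholipid-binding plasma protein and the most abundant, had 1400 and 1742 CPM after the gavage, against 3157 and 2238 CPM with ethanol alone (log2 fold change -0.78, SE 0.29, edgeR adjusted p = 0.252). Apol7a, of the intracellular apolipoprotein L family, had 39.9 and 53.9 CPM after the gavage, against 98.4 and 121 CPM with ethanol alone (-1.22, SE 0.24, edgeR adjusted p = 0.136). Apol9a and Apol9b, interferon-inducible near-copies whose reads the counting could split, had log2 fold changes of -1.95 and -2.32, and were named after their values were seen. Apod followed the replicate numbers, with 2.04 and 0 CPM after the gavage, against 1.06 and 0 CPM with ethanol alone.

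Genes of HDL formation and remodelling were lower in 8 of 10 (48.3% of all tested genes), with a median of -0.43 and 4 of 10 lower at an unadjusted p under 0.05 (9.85%). Of the 2 with a higher fitted level, Abca1, the transporter that loads apolipoprotein A-I with lipid, did not overlap. It had 318 and 444 CPM after the gavage, against 139 and 241 CPM with ethanol alone (log2 fold change 1.00, SE 0.35, edgeR adjusted p = 0.24). The other, Pltp, was named after its value was seen and followed the replicate numbers. Pltp had 153 and 32.2 CPM after the gavage, against 99.9 and 46.0 CPM with ethanol alone. Lipg, endothelial lipase, had 7.42 and 11.6 CPM after the gavage, against 25.3 and 22.0 CPM with ethanol alone (-1.32, SE 0.27, edgeR adjusted p = 0.141). Pon1, an esterase carried on HDL, had 730 and 915 CPM after the gavage, against 1382 and 1342 CPM with ethanol alone. Lipc, hepatic lipase, and Scarb1, the HDL receptor, were named after their values were seen and had log2 fold changes of -1.07 and -0.97. In this list DESeq2 called 1 gene higher, Abca1, and 4 lower (4.37% and 5.43% of the genes with an adjusted p).

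Genes that lipidate, fold, export or edit the product of Apob split evenly, with 6 of 13 higher, 7 of 13 lower and a median of -0.21. An unadjusted p under 0.05 was reached by 1 of the higher and 2 of the lower genes, beside 8.91% and 9.85% of all tested genes. Mttp, the transfer protein that loads apolipoprotein B with triglyceride, had 863 and 706 CPM after the gavage, against 346 and 456 CPM with ethanol alone, with no overlap (log2 fold change 0.97, SE 0.26, edgeR adjusted p = 0.191). DESeq2 called Mttp (adjusted p = 0.00312). P4hb, the partner subunit of that protein, had 1604 and 2178 CPM after the gavage, against 1594 and 1896 CPM with ethanol alone, and overlapped. Apobec1, the enzyme that edits Apob mRNA, had 10.9 and 12.4 CPM after the gavage, against 19.4 and 15.8 CPM with ethanol alone (-0.60, SE 0.20, edgeR adjusted p = 0.226).

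Lipoprotein lipase and its regulators were lower in 6 of 8 with a median of -0.40, and 1 of 8 was lower at an unadjusted p under 0.05 (9.85% of all tested genes). Lpl, the gene of the lipase, was named after its value was seen and followed the replicate numbers. It had 59.5 and 27.1 CPM after the gavage, against 72.3 and 27.7 CPM with ethanol alone. Lmf1, a folding factor of lipases, had 23.2 and 27.2 CPM after the gavage, against 42.6 and 36.1 CPM with ethanol alone. Furin, a proprotein-cleaving protease, had a log2 fold change of 0.11 with overlapping groups. Receptors and their regulators had a median of -0.01, with 4 of 10 higher and 6 of 10 lower, of which 1 and 0 had an unadjusted p under 0.05 (8.91% and 9.85% of all tested genes). Lrp1, the most abundant, had 729 and 928 CPM after the gavage, against 725 and 954 CPM with ethanol alone. Sorl1 had 18 and 9.30 CPM after the gavage, against 4.21 and 7.90 CPM with ethanol alone.

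Among 20 transcription factors and cofactors known to act on apolipoprotein genes, 8 were higher and 12 lower, with a median of -0.18. At an unadjusted p under 0.05, 3 were lower and 0 higher (9.85% and 8.91% of all tested genes). DESeq2 called 2 lower and 0 higher (5.43% and 4.37% of the genes with an adjusted p). Hnf4a, the nuclear receptor known to bind several apolipoprotein promoters, had 859 and 754 CPM after the gavage, against 872 and 1069 CPM with ethanol alone (log2 fold change -0.27, SE 0.24, edgeR adjusted p = 0.588). The small heterodimer partner Nr0b2, which represses nuclear receptors, had 13.1 and 11.8 CPM after the gavage, against 50.7 and 37.7 CPM with ethanol alone. Its log2 fold change was -1.83 (SE 0.21, edgeR adjusted p = 0.108, DESeq2 adjusted p = 6.3e-09). Foxa2 had a log2 fold change of 0.31. Creb3l3, which activates Apoa4 and Apoa5 in mouse liver, was named after its value was seen and had 243 and 382 CPM after the gavage, against 348 and 289 CPM with ethanol alone, so the groups overlapped. Without replicate 1 of ethanol alone, the list medians were -0.54 for the other apolipoproteins, -0.53 for HDL remodelling and -0.19 for the assembly and export genes. They were -0.30 for the lipase and its regulators, -0.21 for the receptors and -0.03 for the transcription factors. The median of the assembly and export genes changed sign, to 0.04 without replicate 1 of the gavage group, 0.14 without replicate 2 of ethanol alone and 0.02 with the length and GC offset. That of the receptors was 0.10 without replicate 2 of ethanol alone. The medians of the other 4 lists stayed below 0 with each library left out and with that offset.

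**Figure D5:**
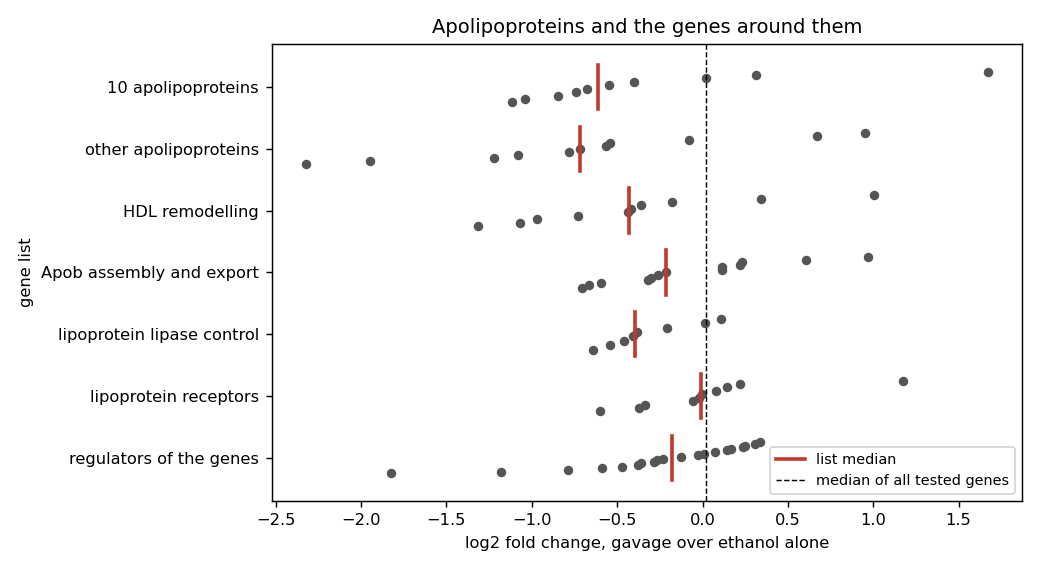
Log2 fold change of each tested gene, gavage over ethanol alone, for the 10 apolipoproteins and 6 lists of related genes; red bars are list medians and the dashed line is the median of all tested genes, 0.02. The medians run from -0.72 for the other apolipoproteins to -0.01 for the receptors, and Apoa4 is the point at 1.67 in the top row.

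The genes whose library profile was closest to that of Apoa4, among 7775 protein-coding genes with a mean of at least 10 CPM, were Acsl4, Nop58, Plekha1, Gtpbp2 and Tmem62. The measure was the Euclidean distance between log2 CPM centred over the 4 libraries, which ran from 0.286 to 0.304. Acsl4 had 206 and 237 CPM after the gavage, against 87.5 and 67.3 CPM with ethanol alone. The log2 fold changes of the 5 genes lay between 1.41 and 1.52. They were chosen for this likeness, so their values are a description.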

How the data were processed

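Whole-liver mRNA was sequenced in 4 libraries, 2 of the gavage group and 2 of ethanol alone, grouped by their titles. The authors deposited 1 table of raw read counts, whole numbers for each gene symbol, with 1 column per library. Per the submitters' processing notes, the build was GRCm38 and the tools were HTSeq, STAR 2.6.0a, edgeR and bcl2fastq 2.20.0.422, with no role stated. The annotation, the strand setting and the handling of ambiguous reads were not given in the sources used here. The labels name both a TruSeq and a KAPA kit.

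Genes were kept by filterByExpr (minimum count 10, minimum total 15) and fitted in R 4.3.3 with edgeR 4.0.16, with TMM factors of 1.05 and 1.00 for the gavage group and 0.951 and 0.998 for ethanol alone. The quasi-likelihood test was 2-sided, without covariates, with p-values adjusted by Benjamini-Hochberg over all tested genes (threshold 0.05), and was checked on simulated counts, where the fold changes were recovered but more than the nominal share of the calls of this test and of DESeq2 were false. Each SE was derived from the fit as the size of the log2 fold change over the root of its F statistic. A floor of 3 counts is 0.0955 to 0.110 CPM. Exon lengths, transcript length and GC content (98.5% of tested genes matched by symbol) came from GENCODE M21 on GRCm38, whose coordinates span whole genes. Length classes used log2(CPM + 0.1).

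Alternatives were DESeq2 1.42.0, limma-voom (limma 3.58.1), edgeR's likelihood-ratio test, other scalings and filters, a replicate block, an offset for length and GC content (loess, span 0.5), and each library left out. In each related list the most abundant gene and those with the smallest p in each direction were named, together with the 5 genes closest in profile to the apolipoprotein with the largest fold change; 2 genes that this rule names are not reported here. The members and lists were chosen with earlier results of these data known.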

Additional observations from a re-analysis of the deposited data

How the results depend on the processing

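With 2 libraries a group, no gene passed edgeR's quasi-likelihood test (smallest adjusted p 0.0638, 2497 genes at an unadjusted p under 0.05). The count of 0 genes became 1177 with DESeq2 (525 higher, 652 lower), 549 with edgeR's likelihood-ratio test, 410 with the replicate block, 4 with the length and GC offset and 842 with that offset and the block, and 0 to 31 with 1 library left out. Of the 10 apolipoproteins, 0 were called with the reported fit, 4 with DESeq2, and 1, Apoa4, with the likelihood-ratio test and with the offset and block together (adjusted p = 0.0224). Their median of -0.61 was -0.29 with the offset, -0.28 with offset and block, and between -0.97 and -0.085 with 1 library left out, the value nearest 0 coming without replicate 1 of ethanol alone. Those lower numbered 6 to 9 with 1 library left out. At an unadjusted p under 0.05, 4 were lower (9.85% of all tested genes), but 0 with the offset (8.96%), 0 without replicate 1 of the gavage group (3.87%) or of ethanol alone (7.55%), 3 without replicate 2 of the gavage group (4.9%) and 5 without replicate 2 of ethanol alone (14.1%). The share of counts held by the 10 differed by -1.02 percentage points, gavage minus ethanol alone, and by -1.66 to -0.39 with 1 library left out.

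With 1 library left out, the log2 fold change ran from -1.32 to 0.062 for Apoa1, from -1.03 to 0.039 for Apoa5, from -0.21 to 0.69 for Apob and from -0.063 to 0.10 for Apoc2. Apoa1 and Apoa5 changed sign without replicate 1 of ethanol alone. Apob changed sign without replicate 2 of the gavage group. It also did so with the offset (-0.057) and with offset and block (-0.14), Apoc3 with the offset (0.096) and with offset and block (0.065), and Apoc2 with upper-quartile factors (-0.014). The cause was not tested. Apoa4, Apoa2, Apoc1, Apoe and Apom kept their direction under all 15 alternatives. The replicate numbers share only a number in the labels. Deviations of same-numbered libraries correlated at 0.607 over genes, a hint from the data and not from the design, and the block called 0 of the 10, with Apoa4 at an adjusted p of 0.0571.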
